A study of Homo sapiens with 12 samples.

Results

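Iron enters most cells bound to transferrin, is reduced and moved into the cytosol from the endosome, and is stored inside ferritin, a shell built of heavy (FTH1) and light (FTL) chains. A pair of iron regulatory proteins, encoded by ACO1 and IREB2, bind short RNA hairpins called iron-responsive elements when iron is scarce. A hairpin in the 5′ untranslated region then blocks translation, as in ferritin, and hairpins in the 3′ untranslated region protect the mRNA from decay, as in the transferrin receptor. The genes described here are the 10 of this system named for uptake, reduction, storage, export and sensing, namely TFRC, SLC11A2, CYBRD1, STEAP3, FTH1, FTL, NCOA4, SLC40A1, IREB2 and ACO1. They were taken by gene symbol from the 58302 genes of the deposited table, and each symbol matched 1 row. In the table's coordinates (GRCh38), which matched GENCODE release 29 for all 10 genes, TFRC lies at chr3:196027183-196082189, SLC11A2 at chr12:50979401-51028566, CYBRD1 at chr2:171522247-171558133, STEAP3 at chr2:119223831-119265652 and FTH1 at chr11:61959718-61967660. Of the others, FTL lies at chr19:48965301-48966878, NCOA4 at chr10:46005088-46030714, SLC40A1 at chr2:189560579-189583758, IREB2 at chr15:78437431-78501456 and ACO1 at chr9:32384603-32454769.

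The 4 groups had 3 libraries of polyadenylated RNA each. They were U251 glioma cells given 180 µM artesunate for 24 h, U251 controls in culture medium, U87 glioma cells given 24.08 µM artesunate for 24 h, and U87 controls in culture medium. Artesunate is an endoperoxide drug of the artemisinin class, whose peroxide bridge is known to react with ferrous iron and haem. U251 and U87 are established human glioma lines, each a single model, and since the doses differ, line and dose cannot be told apart. The extraction text names artemisinin where the treatment label names artesunate, a solvent control is not stated, and all samples carry the label day 9. The labels do not say whether replicates were separate cultures, so p-values measure the spread between these libraries, which may be technical.

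Library totals ran from 13631985 to 17314284 counts. Of the glial and neural stem markers, VIM, CD44 and NES were detected in all 12 libraries, whereas SOX2 reached 264 CPM (counts scaled to the library total) in U251 and was at 0 in both U87 groups, and AQP4 was at 0 throughout. GFAP averaged 56.7 and 67.8 CPM in U251 artesunate and control libraries, against 1.63 and 1.04 CPM in those of U87. OLIG2 went the other way, at 0 and 0.148 CPM in those of U251 and 7.23 and 3.25 CPM in those of U87. S100B stayed at or below 0.733 CPM. Of the neuron markers, RBFOX3 stayed at or below 0.211 CPM. SYT1 averaged 39.5 and 35.7 CPM in U251 artesunate and control libraries, against 10.4 and 2.96 CPM in those of U87. SNAP25 averaged 1.00 and 1.18 CPM in those of U251, against 12.3 and 23.1 CPM in those of U87. The oligodendrocyte markers summed to less than 1 CPM in each library (0.347 to 0.920), and of the 4 leukocyte and microglial markers AIF1 was at 0 and PTPRC and CX3CR1 stayed at or below 0.248 CPM. CD68, a lysosomal glycoprotein and the one marker of that list above 1 CPM, set its sum to 3.52 to 6.25 CPM in U251 artesunate and 0.317 to 2.70 CPM in U251 control libraries, and to 21.8 to 51.7 CPM in U87 artesunate and 56.2 to 95.6 CPM in U87 control libraries; its part in the results was not tested.

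Of the 10 genes 5 are known from the literature to carry an iron-responsive element, and the elements are shown here because they split the set into transcripts that the same proteins are known to block and to protect. The search used a C, any 5 bases and the loop CAGTGN, where N was A, C or T. At least 4 of 5 stem positions had to pair, with G and T counted as a pair. It covered the untranslated regions of GENCODE release 29 on GRCh38. Elements that depart from this pattern would be missed, so the elements shown may not be all that a gene carries. The loop is in capitals and each 30-base stretch is written in DNA letters, 5′ to 3′, on the strand of the gene.
FTH1, 5′ untranslated region, chr11:61967573-61967602, minus strand: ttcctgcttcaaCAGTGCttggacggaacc
FTL, 5′ untranslated region, chr19:48965335-48965364, plus strand: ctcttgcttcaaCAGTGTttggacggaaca
SLC40A1, 5′ untranslated region, chr2:189580660-189580689, minus strand: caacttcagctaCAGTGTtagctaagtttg
TFRC, 3′ untranslated region, chr3:196050978-196051007, minus strand: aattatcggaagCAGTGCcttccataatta
TFRC, 3′ untranslated region, chr3:196050574-196050603, minus strand: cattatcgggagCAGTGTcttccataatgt
TFRC, 3′ untranslated region, chr3:196050509-196050538, minus strand: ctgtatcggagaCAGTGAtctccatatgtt
TFRC, 3′ untranslated region, chr3:196050462-196050491, minus strand: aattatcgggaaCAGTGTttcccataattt
SLC11A2, 3′ untranslated region, chr12:50988268-50988297, minus strand: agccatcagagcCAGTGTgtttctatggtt

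All 5 stem positions paired in the elements of FTH1, FTL, SLC40A1 and TFRC, and 4 paired in that of SLC11A2. The SLC11A2 element lies in 5 annotated transcripts, and gene-level counts do not part these from transcripts without it. The same letters, with 4 paired positions, also occurred in the 3′ untranslated regions of IREB2 and ACO1. Among all genes with such a region in the annotation, 1.065% had a match in the 5′ and 3.507% in the 3′ untranslated region. A match of these letters alone therefore does not show binding, which was not tested here.

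Levels between genes were compared as CPM per kilobase of the longest annotated transcript, since the length behind the deposited FPKM exceeded the annotated exons for most of these genes. On this scale the ferritin chains led in every group. FTL stood at 4570 and FTH1 at 3120 in U251 artesunate libraries, against 3930 and 2350 in U251 controls. In U87 the order was the other way, with FTH1 at 4050 and FTL at 2100 in artesunate libraries, against 2720 and 2390 in controls. By the deposited FPKM, FTL stood first in all 4 groups, so the order of the ferritin chains in U87 depends on the length used. TFRC came next in each group, at 414 and 335 in U251 artesunate and control libraries and at 168 and 127 in those of U87. The other detected genes lay between 6.86 and 53.3, and SLC40A1 was last everywhere.

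**Figure D1:**
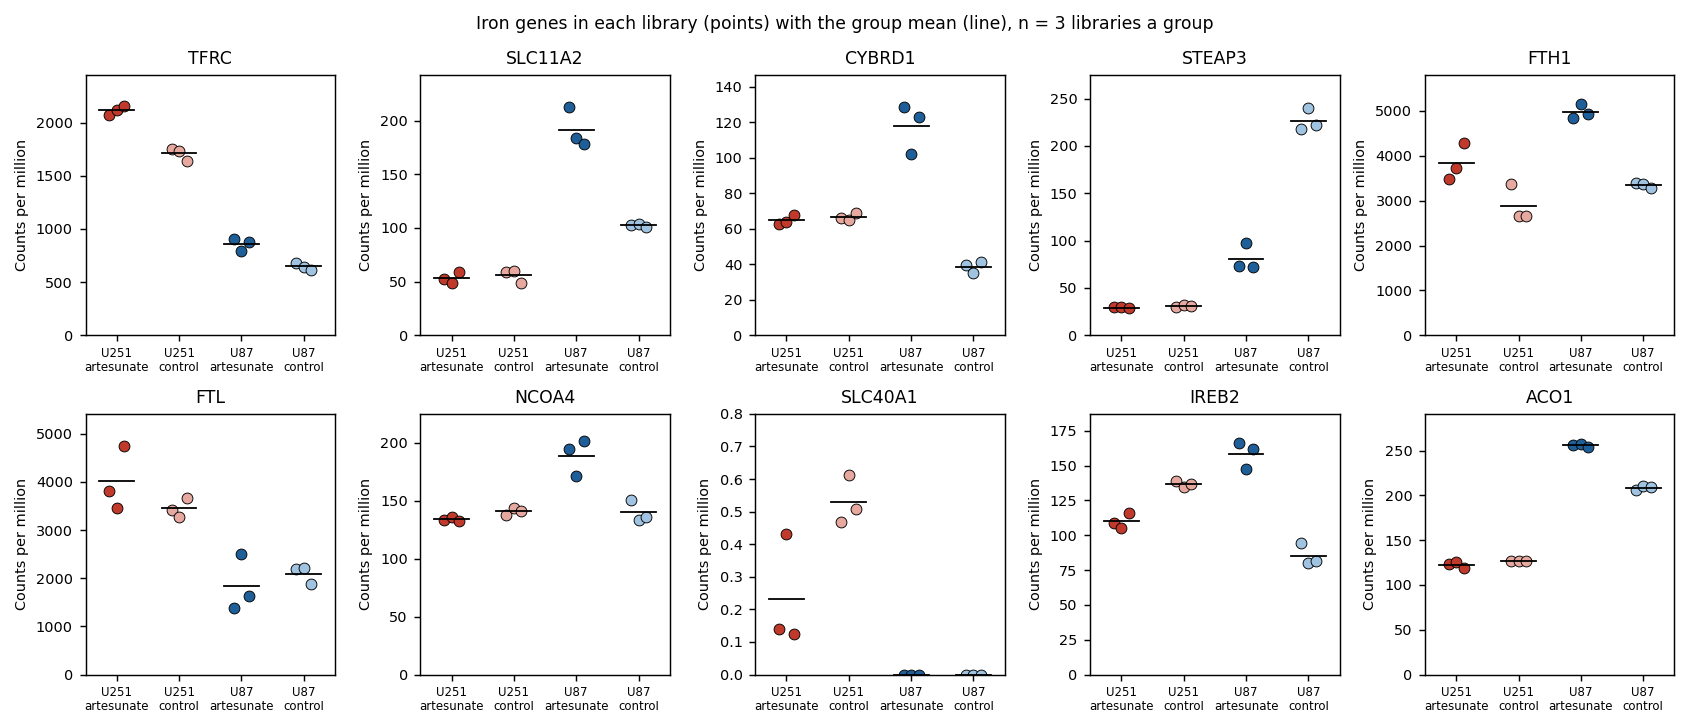
CPM of each of the 10 iron genes (y axis, linear from 0) in the 4 groups (x axis), with a point for each library and a line at the group mean (n = 3). In U87, CYBRD1, SLC11A2 and IREB2 lie higher and STEAP3 lower in artesunate than in control libraries without overlap, TFRC and FTH1 lie higher with artesunate in both lines, and SLC40A1 has no count in U87.

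Counts were tested with edgeR's quasi-likelihood test over all 17150 genes that passed the filter on low counts. A call means a p under 0.05 after Benjamini-Hochberg adjustment over those genes. Of the 10 genes 9 passed the filter, and SLC40A1 did not. In U251, 2 of the 9 rose and 0 fell, against 8.34% of all tested genes called, 4.09% higher and 4.26% lower. At the level of bulk RNA, a change in every cell and a change in the share of cells cannot be told apart. The artesunate and control libraries did not overlap for 6 of the 9, compared with 37.6% of all tested genes. In U87, 7 rose and 1 fell, against 58.3% of all tested genes called, with 29.2% in each direction. The groups did not overlap for 8 of the 9 in U87, compared with 62.5% of all tested genes. The median log2 fold change of the 9 was −0.01 in U251 and 0.51 in U87, and that of all tested genes was 0 in both.

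Fold changes in U87 moved with the GC content of the transcript across the whole table. With the tested genes in 4 equal bins from low to high GC content, the median log2 fold change of all tested genes was 0.67, 0.31, −0.16 and −1.04 in U87, and −0.17, −0.07, 0.04 and 0.22 in U251. TFRC, CYBRD1 and IREB2 lie in the lowest bin, SLC11A2, NCOA4 and ACO1 in the next, FTH1 in the third, and STEAP3 and FTL in the highest. A model with a smooth correction of each library for GC content and transcript length called 6 of the 9 in U87, with 45.7% of all tested genes called, and 3 of the 9 in U251, with 8.77% called. Corrected values are given below wherever they alter a result.

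**Figure D2:**
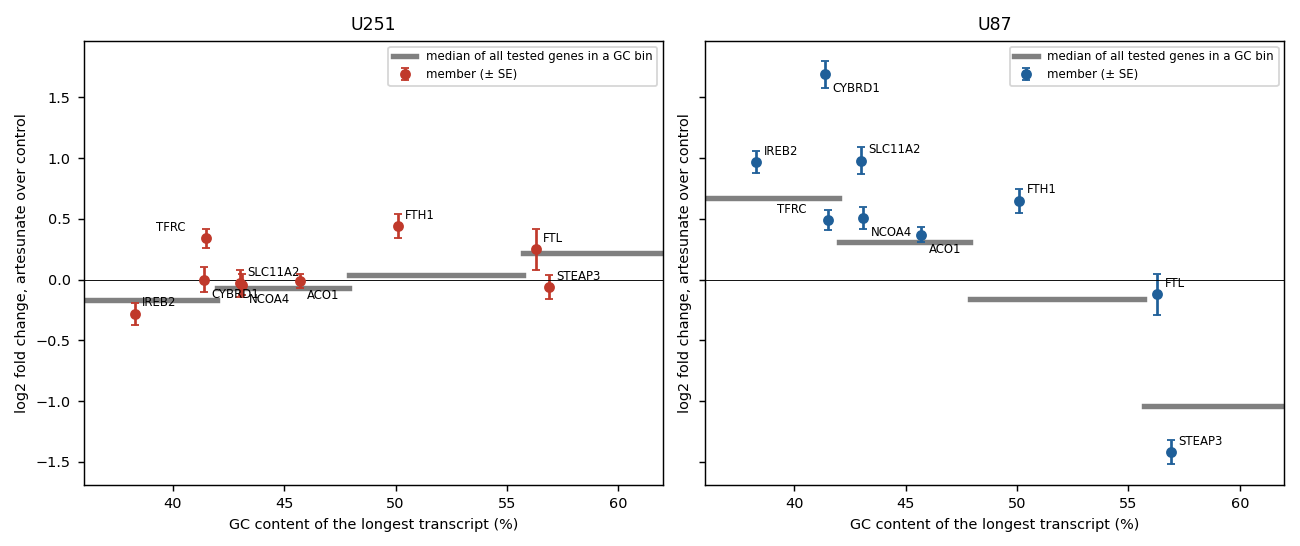
Log2 fold change of artesunate over control (y axis, ± SE) for the 9 tested iron genes against the GC content of the longest transcript in % (x axis), in U251 and in U87, with grey bars at the median of all tested genes in each of 4 GC bins, of which the outer bins run on past the axis. In U87 the grey bars run from 0.67 at low to −1.04 at high GC content. TFRC at 0.49 and STEAP3 at −1.42 lie below the bar of their bin. The other tested genes lie above theirs, CYBRD1 at 1.69 and FTH1 at 0.65 among them.

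The genes of iron uptake rose with artesunate, TFRC in both lines and SLC11A2 in U87. TFRC encodes the transferrin receptor, which carries iron-loaded transferrin into the cell. It had 2075, 2118 and 2154 CPM in U251 artesunate libraries, against 1750, 1738 and 1644 CPM in U251 controls. In U87 it had 907, 796 and 880 CPM in artesunate libraries, against 684, 641 and 618 CPM in controls. The artesunate libraries lay above the controls in both lines without overlap. The log2 fold change was 0.34 ± 0.08 (SE, adjusted p = 0.018) in U251 and 0.49 ± 0.08 (adjusted p = 0.00017) in U87.

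The difference of these effects of TFRC, U251 minus U87, was −0.15 ± 0.11 (adjusted p = 0.28). After the GC and length correction TFRC changed by 0.46 ± 0.05 in U251 (adjusted p = 0.00023) and by −0.01 ± 0.05 in U87 (adjusted p = 0.90), and the difference was 0.47 ± 0.07 (adjusted p = 0.00065). The call of TFRC in U251 was lost without U251 control replicate 2 or 3 (adjusted p = 0.056 and 0.078) or without U251 artesunate replicate 1 or 2 (adjusted p = 0.055 and 0.063), while its fold change stayed between 0.30 and 0.37. Without U87 artesunate replicate 2 the difference between the lines was −0.21 (adjusted p = 0.039).

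SLC11A2 encodes DMT1, the proton-coupled transporter that moves ferrous iron out of the endosome. It had 213, 184 and 179 CPM in U87 artesunate libraries, against 103, 104 and 101 CPM in U87 controls. In U251 it had 52.6, 48.9 and 58.8 CPM in artesunate libraries, against 58.7, 60.0 and 48.6 CPM in controls. The groups stood apart in U87 and overlapped in U251. It changed by a log2 fold change of 0.98 ± 0.11 in U87 (adjusted p = 1.3e-05), a 1.97-fold level, and −0.03 ± 0.11 in U251 (adjusted p = 0.93). The difference between the lines was −1.01 ± 0.15 (adjusted p = 0.00024). With the GC and length correction the change in U87 was 0.58 ± 0.09 (adjusted p = 3e-04) and the difference was −0.51 ± 0.13 (adjusted p = 0.011).

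The reductases moved apart in U87. CYBRD1, also called duodenal cytochrome b, reduces ferric iron at the plasma membrane. It had 129, 102 and 123 CPM in U87 artesunate libraries, against 39.6, 35.2 and 41.1 CPM in U87 controls. In U251 it had 62.9, 63.9 and 67.5 CPM in artesunate libraries, against 65.9, 65.0 and 68.6 CPM in controls. Each U87 artesunate library thus lay above its controls and above all U251 libraries, whereas the U251 groups overlapped. CYBRD1 rose by 1.69 ± 0.11 on the log2 scale in U87 (adjusted p = 2.6e-07), a 3.22-fold level, and its value was 0.00 ± 0.10 in U251 (adjusted p = 1). The difference was −1.69 ± 0.15 (adjusted p = 7.2e-06). The GC and length correction gave 1.20 ± 0.07 in U87 (adjusted p = 3.2e-07) and a difference of −1.07 ± 0.10 (adjusted p = 3.1e-05).

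STEAP3, the ferrireductase of the transferrin endosome, went the other way. It had 73.0, 97.4 and 72.1 CPM in U87 artesunate libraries, against 218, 240 and 222 CPM in U87 controls. U251 had 29.4, 29.7 and 28.6 CPM in artesunate libraries, against 30.3, 32.5 and 31.0 CPM in controls. The artesunate libraries lay below the controls in both lines, by a wide margin in U87 and by a small one in U251 that the TMM factors close. STEAP3 had a log2 fold change of −1.42 ± 0.10 in U87 (adjusted p = 7e-07), a 0.374-fold level, and of −0.06 ± 0.10 in U251 (adjusted p = 0.79). The difference was 1.36 ± 0.15 (adjusted p = 2.6e-05).

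The GC and length correction brought the change of STEAP3 in U87 to −0.76 ± 0.06 (adjusted p = 1.3e-06) and the difference to 0.52 ± 0.08 (adjusted p = 0.00076). With it, STEAP3 was called lower in U251 as well, at −0.24 ± 0.06 (adjusted p = 0.028). An antisense gene, STEAP3-AS1, overlaps STEAP3 in the annotation. The strand setting of the counting is not given in the sources used here, so reads of an overlapping gene on the other strand cannot be told apart.

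**Figure D3:**
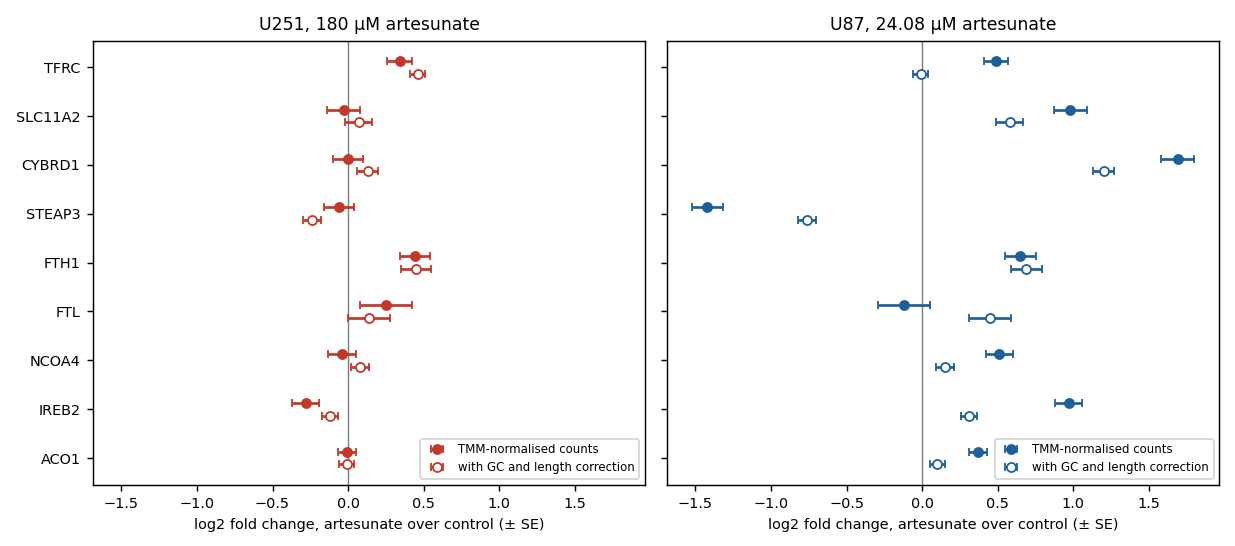
Log2 fold change of artesunate over control (x axis, ± SE) for the 9 tested iron genes (y axis) in U251 and in U87, with filled points for TMM-normalised counts and open points for the model with GC and length correction. FTH1 lies above 0 in both lines with both models, and the U87 values of TFRC, NCOA4 and ACO1 move to between −0.01 and 0.15 with the correction.

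Of the ferritin chains, the heavy chain rose in both lines and the light chain was called in neither. FTH1 encodes the heavy chain, whose ferroxidase centre oxidises iron for storage. It had 4842, 5158 and 4940 CPM in U87 artesunate libraries, against 3399, 3362 and 3280 CPM in U87 controls. In U251 it had 3487, 3720 and 4290 CPM in artesunate libraries, against 3364, 2661 and 2648 CPM in controls. The groups did not overlap in either line, and the nearest U251 libraries, artesunate replicate 1 and control replicate 1, were close. The log2 fold change was 0.65 ± 0.10 in U87 (adjusted p = 0.00013) and 0.44 ± 0.10 in U251 (adjusted p = 0.018), and the difference, U251 minus U87, was −0.21 ± 0.14 (adjusted p = 0.24).

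The GC and length correction left FTH1 at 0.69 ± 0.10 in U87 (adjusted p = 0.00021) and 0.45 ± 0.10 in U251 (adjusted p = 0.019). The call of FTH1 in U251 was lost without U251 control replicate 2 or 3 (adjusted p = 0.090 and 0.092) or U251 artesunate replicate 2 or 3 (adjusted p = 0.058 and 0.057), with fold changes of 0.37 to 0.58 over all libraries left out in turn. It was also lost on log2(FPKM + 1) with no filter on low values (0.41, adjusted p = 0.083 by limma). BEST1 overlaps FTH1 on the other strand.

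FTL encodes the light chain, which helps to form the mineral core. It had 3819, 3461 and 4754 CPM in U251 artesunate libraries, against 3424, 3274 and 3663 CPM in U251 controls. In U87 it had 1392, 2493 and 1635 CPM in artesunate libraries, against 2199, 2213 and 1883 CPM in controls. The groups overlapped in both lines, and U87 artesunate replicate 2 lay above every U87 control while the other two U87 artesunate libraries lay below every one. The log2 fold change was 0.25 ± 0.17 in U251 (adjusted p = 0.42) and −0.12 ± 0.17 in U87 (adjusted p = 0.57).

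The value of FTL in U87 rested on single libraries and on the model. It was −0.39 (adjusted p = 0.021) without U87 artesunate replicate 2 and 0.03 (adjusted p = 0.90) without U87 artesunate replicate 1. With the GC and length correction it was 0.45 ± 0.14 (adjusted p = 0.025), a call in the opposite direction. The difference between the lines was 0.37 ± 0.24 (adjusted p = 0.23), and 0.63 (adjusted p = 0.0087) without U87 artesunate replicate 2. After the GC and length correction it was −0.31 ± 0.20 (adjusted p = 0.29), in the opposite direction.

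Within each library, the FTH1 to FTL count ratio was 3.48, 2.07 and 3.02 in U87 artesunate libraries, against 1.55, 1.52 and 1.74 in U87 controls. In U251 it was 0.913, 1.07 and 0.902 in artesunate libraries, against 0.982, 0.813 and 0.723 in controls. The ratio was higher with artesunate in all 3 U87 libraries and overlapped the controls in U251. The log2 ratio differed by 0.80 in U87 (two-sided exact permutation test, p = 0.1, the smallest that 3 against 3 libraries allow) and by 0.21 in U251 (p = 0.3, exact permutation test). From the fold changes after the GC and length correction, the log2 ratio differed by 0.24 in U87 and by 0.31 in U251. These ratios compare counts, so their size depends on transcript length and only their change within a line is read. They were chosen after the values of these genes had been seen.

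Ferritin has many processed pseudogenes, near copies of its mRNA in the genome, and the sources used here do not say how reads that match several copies were counted. The table lists 25 rows named as FTH1 pseudogenes, 17 of them with a count, and 16 as FTL pseudogenes, 5 of them with a count. Of all counts in FTH1 and its pseudogene rows, the pseudogene rows held 18.7%, 16.3% and 18.4% in U87 artesunate libraries, against 6.12%, 7.10% and 7.57% in U87 controls. In U251 the share was 8.03%, 7.37% and 6.44% in artesunate libraries, against 6.45%, 9.31% and 9.84% in controls. The share was thus higher with artesunate in U87 without overlap, and the U251 groups overlapped.

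The FTH1 pseudogene rows with the most counts were FTH1P7 and FTH1P11. FTH1P7 averaged 358 ± 21.1 CPM in U87 artesunate libraries and 86.3 ± 7.53 CPM in U87 controls (SD, n = 3 each), a log2 fold change of 2.13 ± 0.10 (adjusted p = 3.8e-08 by edgeR). FTH1P11 averaged 375 ± 81.2 CPM in U87 artesunate libraries and 29.3 ± 4.14 CPM in U87 controls (SD, n = 3 each), with 3.76 ± 0.19 (adjusted p = 6.6e-08). Neither was called in U251 (adjusted p = 0.15 and 0.37). FTLP3 held 4218 counts over all libraries, and the other 4 FTL pseudogene rows with a count held 1 each. It averaged 24.7 ± 6.13 CPM in U87 artesunate libraries and 11.8 ± 0.836 CPM in U87 controls (SD, n = 3 each), with 1.13 ± 0.18 (adjusted p = 0.00019).

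Reads of FTH1 and of such rows may be exchanged by the counting, so both levels are uncertain. With the pseudogene counts added to FTH1, its log2 fold change was 0.83 in U87, and the difference, U251 minus U87, was −0.40 (adjusted p = 0.017), a call that FTH1 alone did not give.

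**Figure D4:**
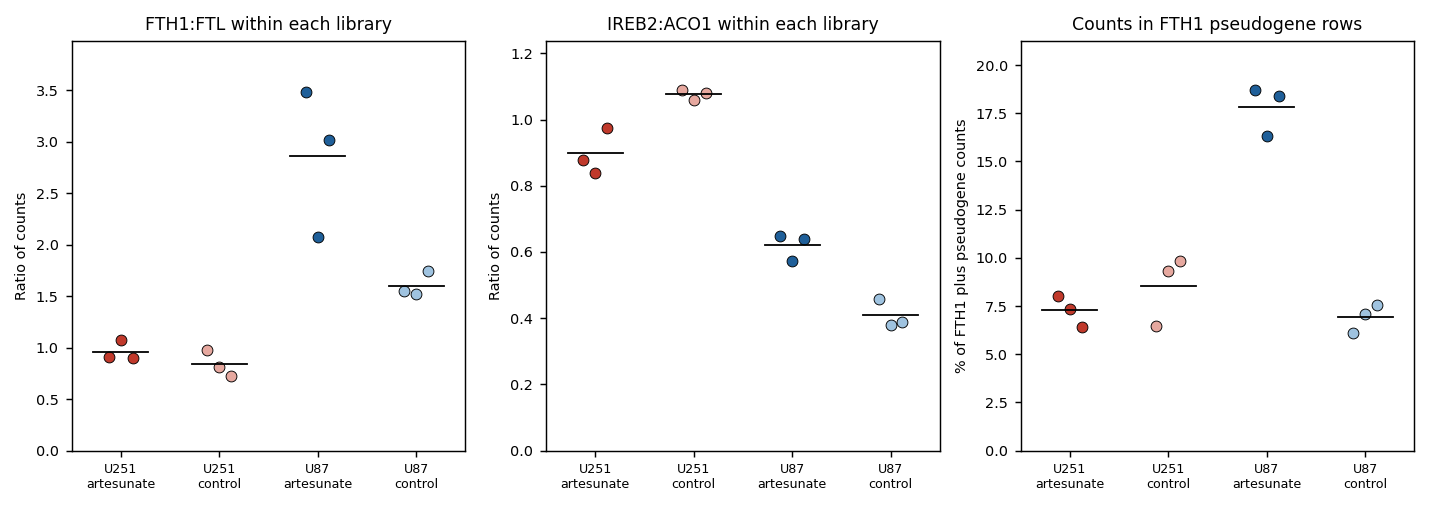
Count ratios of FTH1 to FTL and of IREB2 to ACO1, and the share of FTH1-family counts in pseudogene rows in % (y axes, linear from 0), in the 4 groups (x axes), with a point for each library and a line at the mean (n = 3). In U87 all 3 measures are higher in artesunate than in control libraries without overlap, with pseudogene shares of 16.3% to 18.7% against 6.12% to 7.57%.

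NCOA4, the receptor that delivers ferritin to lysosomes so that its iron is released, was raised in U87. It had 195, 171 and 201 CPM in U87 artesunate libraries, against 151, 133 and 136 CPM in U87 controls. In the U251 groups it had 133, 136 and 133 CPM in artesunate libraries, against 138, 144 and 141 CPM in controls. On this scale the groups did not overlap in either line, higher with artesunate in U87 and slightly lower in U251. The TMM factors close the gap in U251. NCOA4 had a log2 fold change of 0.51 ± 0.09 in U87 (adjusted p = 0.00033) and −0.04 ± 0.09 in U251 (adjusted p = 0.85), and the difference was −0.55 ± 0.12 (adjusted p = 0.0029). With the GC and length correction neither the change in U87 (0.15 ± 0.06, adjusted p = 0.064) nor the difference (−0.07 ± 0.08, adjusted p = 0.59) was called.

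SLC40A1 encodes ferroportin, the iron exporter, and was barely detected. U251 artesunate libraries had 2, 7 and 2 counts, against 7, 10 and 8 counts in U251 controls, and all 6 U87 libraries had 0. The summed counts of U251 gave an artesunate to control ratio of 0.444, with a 95% exact binomial interval of 0.197 to 0.936 that covers counting error only. The 0 counts of U87 allow a level of up to 0.0680 CPM in artesunate and 0.0610 CPM in control libraries, at 3 counts over each group. At that limit, and with the counts of U251 controls taken as exact, U251 controls were 8.70-fold higher than U87 controls. No test over libraries was made for this gene.

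The sensors rose in U87, IREB2 more than ACO1. IREB2 encodes iron regulatory protein 2, which is degraded when iron is plentiful. It had 166, 147 and 162 CPM in U87 artesunate libraries, against 94.7, 80.2 and 81.3 CPM in U87 controls. In U251 it had 109, 105 and 116 CPM in artesunate libraries, against 139, 134 and 137 CPM in controls. Artesunate libraries lay above the controls in U87 and below them in U251, with no overlap in either line. The log2 fold change was 0.97 ± 0.09 in U87 (adjusted p = 3.3e-06), a 1.95-fold level.

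In U251 the log2 fold change of IREB2 was −0.28 ± 0.09 and missed the threshold (adjusted p = 0.074). It was past the threshold under 8 of 22 alternatives, with adjusted p from 0.017 to 0.21, DESeq2 (adjusted p = 0.018) among them. The difference between the lines was −1.25 ± 0.12 (adjusted p = 1.7e-05). After that correction IREB2 changed by 0.31 ± 0.05 in U87 (adjusted p = 0.00062) and by −0.12 ± 0.05 in U251 (adjusted p = 0.19), and the difference was −0.43 ± 0.08 (adjusted p = 0.0014). An antisense gene, AC027228.1, overlaps IREB2.

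ACO1 encodes iron regulatory protein 1, which is a cytosolic aconitase when it holds an iron-sulphur cluster. It had 256, 258 and 254 CPM in U87 artesunate libraries, against 206, 211 and 209 CPM in U87 controls. In the U251 groups it had 124, 125 and 119 CPM in artesunate libraries, against 127, 126 and 127 CPM in controls. The libraries of each group lay close together, and on this scale the groups did not overlap in either line. The TMM factors close the gap in U251. ACO1 had a log2 fold change of 0.37 ± 0.06 in U87 (adjusted p = 0.00032) and −0.01 ± 0.06 in U251 (adjusted p = 0.96), and the difference was −0.38 ± 0.09 (adjusted p = 0.0036). With the GC and length correction neither the change in U87 (0.10 ± 0.05, adjusted p = 0.13) nor the difference (−0.11 ± 0.08, adjusted p = 0.30) was called.

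The IREB2 to ACO1 count ratio was 0.648, 0.572 and 0.639 in U87 artesunate libraries, against 0.459, 0.381 and 0.388 in U87 controls. In U251 it was 0.879, 0.840 and 0.974 in artesunate libraries, against 1.09, 1.06 and 1.08 in controls. The log2 ratio differed by 0.60 in U87 and by −0.27 in U251, each without overlap between groups (two-sided exact permutation test, p = 0.1 in each line). After the GC and length correction the IREB2 to ACO1 differences were 0.20 in U87 and −0.12 in U251. The TFRC to FTH1 ratio, receptor over storage, differed by −0.16 in U87 (exact permutation p = 0.1) and by −0.10 in U251 (exact permutation p = 0.4), and after the correction by −0.70 in U87 and 0.01 in U251.

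Counts of mRNA do not measure translation, which the 5′ elements are known to block, and whether any element acted here was not tested. FTH1 and TFRC carry known elements in opposite untranslated regions, and both rose in U251. In U87 FTH1 rose, and TFRC rose before the GC and length correction only. SLC11A2, with an element in the 3′ untranslated region, rose in U87 and was not called in U251 (−0.03 ± 0.11, adjusted p = 0.93 by edgeR). FTL, whose element lies in the 5′ untranslated region like that of FTH1, was called in neither line before the correction. After it, FTL was called higher in U87 (0.45 ± 0.14, adjusted p = 0.025 by edgeR). SLC40A1, also with a 5′ element, had too few counts to be tested.

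The control libraries differed between the lines before treatment. Of the 9 tested genes 4 were higher and 3 lower in U251 than in U87 controls, against 64.8% of all tested genes called, 32.5% higher and 32.3% lower. The groups did not overlap for 7 of the 9, compared with 73.5% of all tested genes. TFRC averaged 1711 ± 57.9 CPM in U251 controls and 647 ± 33.7 CPM in U87 controls (SD, n = 3 each), a log2 fold change of 1.43 ± 0.08 (adjusted p = 1.4e-08 by edgeR). FTL was higher in U251 controls by 0.74 ± 0.17 (adjusted p = 0.0025) and CYBRD1 by 0.81 ± 0.10 (adjusted p = 2.8e-05). Corrected for GC content and length, these were 1.29 ± 0.15 for FTL (adjusted p = 1.1e-05) and 0.40 ± 0.07 for CYBRD1 (adjusted p = 0.00051).

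STEAP3 averaged 31.3 ± 1.09 CPM in U251 controls and 227 ± 11.8 CPM in U87 controls (SD, n = 3 each), a log2 fold change of −2.83 ± 0.11 (adjusted p = 9e-10 by edgeR). SLC11A2 was lower in U251 controls, with −0.85 ± 0.11 (adjusted p = 2.6e-05), and so was ACO1, with −0.70 ± 0.06 (adjusted p = 1.2e-06). IREB2 was higher in U251 controls, with 0.70 ± 0.09 (adjusted p = 2.2e-05), which the GC and length correction brought to 0.11 ± 0.05 (adjusted p = 0.086).

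FTH1 did not pass the threshold between the controls (−0.19 ± 0.10, adjusted p = 0.11, and corrected 0.15 ± 0.10, adjusted p = 0.20) but did without U251 control replicate 1 (−0.33, adjusted p = 0.0051), and NCOA4 was at 0.04 ± 0.09 (adjusted p = 0.74) and, corrected, at −0.22 ± 0.06 (adjusted p = 0.0063). Before the correction, the order of the control levels thus differed by gene. U251 was higher for TFRC, FTL, CYBRD1 and IREB2, and U87 for STEAP3, SLC11A2 and ACO1. After the correction IREB2 was no longer called and NCOA4 was called lower in U251. These comparisons share their control libraries with the artesunate effects above.

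A list of 56 other iron genes, for haem breakdown, iron-sulphur clusters, transport and control, had 44 tested members. In U251, 3 rose, 1 fell and 40 were not called, against 8.34% of all tested genes called. In U87, 18 rose, 10 fell and 16 were not called. The median log2 fold change of the list was 0 in U251 and 0.28 in U87, against 0 for all tested genes in both lines. The counts for U87 stand beside 29.2% of all tested genes called in each direction.

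HMOX1, the haem oxygenase that frees iron from haem, had the largest called rise of this list in both lines. It averaged 208 ± 10.3 CPM in U251 artesunate libraries and 33.1 ± 4.07 CPM in U251 controls (SD, n = 3 each), a log2 fold change of 2.69 ± 0.15 (adjusted p = 3.1e-06 by edgeR). In U87 it averaged 447 ± 113 CPM in artesunate libraries and 152 ± 9.33 CPM in controls (SD, n = 3 each), with 1.62 ± 0.15 (adjusted p = 2.9e-06), or 2.40 with the GC and length correction. The other rises in U251 were EPAS1, encoding HIF-2 alpha (0.48 ± 0.09), and SLC39A14, a zinc and iron importer (0.39 ± 0.06), and the fall was STEAP1 (−0.74 ± 0.19, adjusted p = 0.036, and 0.084 with the correction).

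In U87 the next rises were BOLA2 (1.17 ± 0.29) and CISD2 (1.15 ± 0.29), and the deepest falls were NUBP2 (−1.74 ± 0.32), ABCB8 (−1.60 ± 0.22) and MCOLN1 (−1.28 ± 0.12). BOLA2 and NUBP2 act in cytosolic iron-sulphur cluster handling, CISD2 holds such a cluster, ABCB8 is a mitochondrial transporter, and MCOLN1 is a lysosomal cation channel. After the correction CISD2 (0.47, adjusted p = 0.17) and MCOLN1 (−0.08, adjusted p = 0.51) were not called in U87, and NUBP2 and ABCB8 changed by −0.70 and −0.64. BOLA2 had 107 summed counts in U87 artesunate libraries and 55 in U87 controls and has a near-identical copy in the genome, so its value is uncertain.

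Between the lines, the artesunate effects of 9 of the 44 were higher in U251 and of 17 lower, against 49.4% of all tested genes called, 24.1% higher and 25.3% lower. The widest were NUBP2 (2.52 ± 0.43), ABCB8 (1.89 ± 0.30) and SLC22A17 (1.40 ± 0.38) in one direction. In the other they were FLVCR2 (−2.27 ± 0.64, from 6 and 20 summed counts in U251 artesunate and control libraries), CISD2 (−2.17 ± 0.41) and BOLA2 (−2.06 ± 0.44). The GC and length correction brought these differences to 1.26 for NUBP2, 0.67 for ABCB8, −1.30 for CISD2 and −0.30 for SLC22A17, of which that of SLC22A17 was not called (adjusted p = 0.57). Of the 9 genes of the main set, the difference was called for 6, 1 higher and 5 lower, against the same 49.4%, and with the GC and length correction for 5, TFRC among them, against 30.1%.

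Between the controls, 11 of the 44 were higher and 18 lower in U251, against 64.8% of all tested genes called, 32.5% higher and 32.3% lower. EXOC6 (4.62 ± 0.19) and BMP6, a ligand that raises hepcidin in liver (4.58 ± 0.23), were higher in U251 controls, and FLVCR2 (−6.17 ± 0.32) and STEAP1 (−3.39 ± 0.18) were lower. TMEM163 had 38 summed counts in U251 controls and 2 in U87 controls, a ratio of 19.8 with a 95% exact binomial interval of 5.13 to 170. SLC39A4 had 0 counts in U251 controls and 458 in U87 controls, a ratio of 0 with a 95% exact binomial interval up to 0.00845. At a limit of 3 counts over the group, and with the 458 counts taken as exact, it was 146-fold lower in U251.

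Tested protein-coding genes whose pattern over the 12 libraries lay nearest to each of the 9 were found by the root mean square difference of centred log2 CPM. ACO1 lay nearest to FKBP15 (0.05) and VPS33A (0.07), NCOA4 to TBC1D9 (0.05) and GDI2 (0.06), and IREB2 to GNG12 (0.06) and SLU7 (0.07). CYBRD1 lay nearest to PIKFYVE (0.08) and KLHL15 (0.10), TFRC to GTF2IRD2 (0.11) and LMTK2 (0.12), SLC11A2 to ZEB2 and PAPOLA (0.12 each), and FTH1 to MTF1 and CHD6 (0.12 each). STEAP3 lay nearest to PREX1 (0.14) and PKP1 (0.15), and FTL to SNX11 (0.15). The median distance of all tested protein-coding genes to a member was 0.63 to 1.32. The values are a description over libraries that share line, treatment and depth.

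RefSeq start-site windows of 250 bases before and 50 after the start (GRCh38.p14) were at hand for 9 of the 10 genes, 15 windows in all. FTH1 had no window and was not searched. The hypoxia response core ACGTG, or CACGT on the other strand, occurred in the windows of TFRC (position −88 from the start) and FTL (position −11), and in 21.41% of 35116 windows of all genes. The antioxidant response letters TGACNNNGC, on either strand, occurred in 1 window of NCOA4 (position 24) and in 13.35% of all windows. These letters do not overlap in the windows named, and whether they are bound was not tested.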

How the data were processed

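RNA-seq counts of 12 libraries in 4 groups were analysed, grouped and numbered by the sample titles. Per the series text, the authors cleaned the reads (fastp), aligned to GRCh38 by HISAT2 2.1.0, quantified by StringTie 1.3.3b and tested by edgeR 3.30.3. The deposited whole-number counts per gene carry no normalization per the file headers, and the step that made them is not given in the sources used here. The authors deposited FPKM values stated to follow TMM, but in all 10018 genes with at least 50 counts in every library FPKM was count over library total and length, within 0.1% between libraries. The 36 columns of the authors' comparisons were not used, and 0 columns of samples were unmapped.

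Counts were fitted with edgeR 4.0.16 in R 4.3.3 (TMM factors 0.957 to 1.036, minimum count 10, minimum total 15, quasi-likelihood, common biological coefficient of variation 0.183), with p-values adjusted over 17150 genes. The model was run on simulated counts with a small share of genes changed, in U251 artesunate libraries only. That setting does not cover a change as wide as the one called in U87. limma 3.58.1 (FPKM plus 1 or 0.1), DESeq2 1.42.0 and a correction for GC content and length (natural splines, 5 degrees of freedom, values for 99.6% of tested genes) were alternatives. SE is the absolute log2 fold change over the root of F. Between-gene levels used the longest GENCODE 29 transcript. Intervals cover counting error only.

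The named genes were the 10 members, the 3 called genes per direction with the largest fold change in each comparison from the other iron genes, the pseudogenes with the most counts and the nearest genes by pattern, of which 1 is not reported here. Members and lists were chosen with earlier results of these data known.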

Additional observations from a re-analysis of the deposited data

Results flagged for a closer look

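For 6 of the 9 tested iron genes the artesunate effect differed between the lines by edgeR's quasi-likelihood test of the interaction, U251 at 180 µM minus U87 at 24.08 µM, so that line and dose cannot be told apart. The log2 differences were −1.69 for CYBRD1, −1.25 for IREB2, −1.01 for SLC11A2, −0.55 for NCOA4, −0.38 for ACO1 and 1.36 for STEAP3. In this comparison 49.4% of all tested genes were called. After the GC and length correction the differences were −1.07 for CYBRD1, −0.43 for IREB2, −0.51 for SLC11A2 and 0.52 for STEAP3, all 4 called, and −0.07 for NCOA4 and −0.11 for ACO1, neither called. The difference of TFRC, not called before the correction, was then 0.47 (adjusted p = 0.00065 by edgeR). With the correction 30.1% of all tested genes were called.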

How the results depend on the processing

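Over all alternatives, the calls of CYBRD1, SLC11A2, STEAP3, FTH1 and IREB2 in U87 kept their direction and their side of the threshold. For U87, the difference and the controls, all genes called numbered 7809 to 10468, 5142 to 9457 and 10315 to 11969 over the settings. The model reported called 58.3%, 49.4% and 64.8% of all tested genes in these comparisons. The number of the 9 genes called was 6 to 9 in U87, 5 to 8 for the difference and 7 to 8 between controls. In U251 it was 2 in the model reported, and 3 with total counts, DESeq2, only the 6 libraries of the line, log2(FPKM + 1), log2(FPKM + 0.1) or the GC and length correction. It was 1 with a replicate block, where FTH1 had adjusted p = 0.058 by edgeR, and 0 to 3 with each library left out in turn. Where it was 3, the gene called beside TFRC and FTH1 was STEAP3 with the GC and length correction and IREB2 in the other settings. All genes called in U251 numbered 1431, and 2328 with DESeq2, 864 with no filter on low counts, 2892 with only the 6 libraries of the line (a setting that cannot give the difference), 2154 on log2(FPKM + 1), and 652 to 2582 with each library left out, the highest without U87 artesunate replicate 2. The correction for GC content and length brought the 8477 genes called for the difference to 5142.

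Some values changed sign. After that correction, those in U251 were 0.07 for SLC11A2, 0.13 for CYBRD1 and 0.08 for NCOA4, those in U87 −0.01 for TFRC and 0.45 for FTL, those of the difference 0.47 for TFRC and −0.31 for FTL, and those between controls 0.15 for FTH1 and −0.22 for NCOA4. With no filter on low counts, U251 values were 0.02 for CYBRD1 and 0.01 for ACO1. With each library left out, U251 values ran from −0.13 to 0.02 for SLC11A2, −0.03 to 0.01 for CYBRD1 and −0.04 to 0.02 for ACO1, that of FTL in U87 from −0.39 to 0.03, and that of NCOA4 between controls from −0.01 to 0.09. The cause was not tested.

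Same-numbered artesunate and control libraries correlated in their deviations at −0.01 to 0.05, so the numbers were not read as pairs, and the replicate block changed no other call of the 9 genes. The count ratios were chosen after seeing the data, and so were their alternatives. With pseudogene rows added, the log2 TFRC to FTH1 ratio in U87 differed by −0.34 in place of −0.16, and the GC and length correction turned that in U251 from −0.10 to 0.01. Depth limits SLC40A1, at 25 summed counts or fewer in each group.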
